A study of Mus musculus with 2 samples.

Results

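Genes that mark fibroblasts of the vessel adventitia and related connective tissue sheaths were followed in cardiac neural crest cells with and without Adam19. They are Dpt, Pi16, Cd34, Clec3b, Gsn, Dpep1, Gpx3 and Ly6a, and 7 of the 8 were measured among 19938 genes. The set was chosen by the lower array values of Dpt and Pi16 in the Adam19-/- sample, so those values are given as a description. The question was whether the other members shared them. A gene was measured when a transcript cluster, the array's probe set for a gene, was annotated to its symbol alone, and each of the 7 had 1 such cluster. Ly6a had no cluster of that kind in the annotation used here and is not analysed here.

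The cells were tdTomato-positive cells sorted from hearts of mouse embryos at stage E14.5, on a C57BL/6 background. Both samples carried Wnt1-Cre, active in the neural crest, and 1 copy of the R26tdTomato reporter. By their labels they differed in genotype at Adam19, which encodes a membrane-anchored metalloprotease: Adam19+/+ in one and Adam19-/- in the other. The signals of Y-linked genes also differed between them, as given below. The labels name no Cre-dependent Adam19 allele, so Wnt1-Cre served to mark cells. Each genotype had 1 Mouse Gene 1.0 ST array (n = 1), which allows no error and no test between genotypes, and how many embryos were pooled is not stated.

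The adventitia is the outer, collagen-rich coat of an artery. Its fibroblasts lie next to the smooth muscle coat, and in adult tissue Pi16, Dpt, Cd34 and Ly6a are widely used to recognise them and similar fibroblasts of other organs. The members are not one pathway. Dpt encodes dermatopontin, a small matrix protein that binds decorin and TGF-beta. Pi16 encodes peptidase inhibitor 16, a membrane-anchored protein of the CAP superfamily. Cd34 encodes a sialomucin of the cell surface that endothelial and blood-forming cells also carry. Clec3b encodes tetranectin, which binds plasminogen, and Gsn encodes gelsolin, which severs actin filaments. Dpep1 encodes a membrane dipeptidase that cleaves leukotriene D4 and products of glutathione breakdown. Gpx3 encodes a secreted glutathione peroxidase, and Ly6a the surface protein Sca-1.

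The sequences before the starts of 3 genes are shown because these were the members that differed most between the arrays, Dpt and Pi16 in one direction and Gpx3 in the other. Each is the 250 bases before the annotated start, on the plus strand of GRCm38.p6, from RefSeq's gene models: chr1:164796413-164796662 for Dpt, chr17:29318632-29318881 for Pi16 and chr11:54902604-54902853 for Gpx3. Capitals mark every match to 1 of 6 motifs, searched on both strands: the TATA box TATAAA, the E-box CANNTG, the AP-1 motif TGANTCA, the TEAD motif CATTCC, the GC box GGGCGG and the SMAD motif CAGAC.

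Dpt: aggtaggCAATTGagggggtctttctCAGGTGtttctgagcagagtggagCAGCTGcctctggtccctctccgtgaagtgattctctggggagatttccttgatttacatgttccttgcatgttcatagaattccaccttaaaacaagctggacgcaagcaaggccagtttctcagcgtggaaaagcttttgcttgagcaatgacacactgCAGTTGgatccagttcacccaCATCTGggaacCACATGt

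Pi16: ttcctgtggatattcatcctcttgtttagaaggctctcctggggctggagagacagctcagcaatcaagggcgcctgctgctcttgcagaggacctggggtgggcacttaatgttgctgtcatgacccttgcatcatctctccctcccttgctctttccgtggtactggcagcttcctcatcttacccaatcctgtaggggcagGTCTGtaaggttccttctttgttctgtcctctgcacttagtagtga

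Gpx3: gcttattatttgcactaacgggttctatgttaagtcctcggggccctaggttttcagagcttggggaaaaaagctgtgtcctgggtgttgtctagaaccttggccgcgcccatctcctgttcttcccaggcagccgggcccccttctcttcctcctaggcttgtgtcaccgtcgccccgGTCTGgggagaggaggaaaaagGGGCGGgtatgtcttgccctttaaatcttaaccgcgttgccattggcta

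The windows had no motif in common to Dpt and Pi16. That of Dpt held 6 E-box matches and none of the other motifs. At least 1 E-box was found in 66.2% of all 32851 windows of the same kind, and at least 6 in 0.274%. The Pi16 window held 1 SMAD match, a motif found in 42.2% of windows, and no other match. The Gpx3 window held 1 SMAD match and 1 GC box, the latter found in 32.7% of windows. The TATA box, AP-1 and TEAD motifs, found in 12.4%, 6.75% and 12.6% of windows, were in none of the 3. The share of G and C was 48.8% for Dpt, 52.4% for Pi16 and 55.2% for Gpx3, against a median of 52.4%. A match is a match of letters and no evidence of binding, and no match says only that these letters are not in this window. The motifs were chosen after the array values were known. Windows were also present for Cd34, Gsn and Dpep1.

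Signals are the values per cluster as deposited, taken as log2 although their base is not stated. A difference is always the Adam19-/- value minus the Adam19+/+ value. Adam19 itself stood at 11.62 in the Adam19+/+ sample and 9.77 in the Adam19-/- sample, 3.60-fold lower in the direction of the labels. As a reference level, the median of the genes' mean signal, 8.01, served as a floor, and 10122 genes exceeded it on at least 1 array. Among them the median difference was 0.04 and the central 95% ran from -0.20 to 0.30, so that 65.2% were higher in Adam19-/- cells and 33.7% lower. A difference of 1.2-fold is 0.26 on the log2 scale and one of 1.5-fold is 0.58. In 583 genes with at least 2 clusters above the floor, the differences given by 2 clusters lay a median of 0.05 and, at the 95th percentile, 0.24 apart. This gap shows how far readings of a gene can part on the same 2 arrays. It holds no variation between embryos. Where the RNA of a mixed sample differs, fewer cells of a type and less RNA per cell cannot be told apart.

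Dpt and Pi16 were lower in Adam19-/- cells, and the lower values did not extend to the 5 other measured members. Of those 5, none was lower by 1.2-fold and 1, Gpx3, was higher by 1.2-fold. Cd34, Gsn and Dpep1 were nearly level, and Clec3b was somewhat higher. Dpep1 and Clec3b were below the floor on both arrays, so a lower value would be hard to see in them. Over all 7 the median difference was -0.04, and over the 5 others it was -0.03, against 0.01 for all genes. In the whole array, 2.02% of the 19938 genes were lower and 5.07% higher by at least 1.2-fold, and above the floor the shares were 1.13% and 4.06%. The 2 of 7 members that were lower are the pair that chose the set, so nothing is read from their share. No member differed by 1.5-fold, as did 0.0889% of genes above the floor in the lower direction and 0.148% in the higher.

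**Figure D1:**
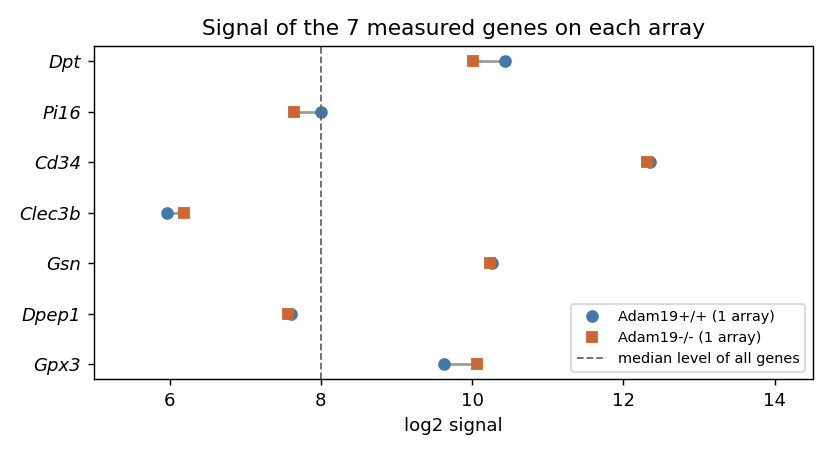
Log2 signal of the 7 measured genes on the Adam19+/+ array (circles) and the Adam19-/- array (squares), 1 array each, with the median level of all genes, 8.01, as a dashed line. Dpt and Pi16 lie further left on the Adam19-/- array, Gpx3 and Clec3b further right, and the symbols of Cd34, Gsn and Dpep1 almost coincide. Levels of different genes come from different probes and are not compared.

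Dpt was measured well above the floor on both arrays. It read 10.44 on the Adam19+/+ array against 10.02 on the Adam19-/- array, which differ by -0.42 on the log2 scale. In linear units this is 1385 against 1035, or 1.34-fold lower. Of the 10122 genes above the floor, 25, Dpt included, had a difference as low or lower. To allow for the wider scatter of dim genes, all genes were also divided by mean signal into 10 bands of equal size. In the band of Dpt the central 95% of differences ran from -0.17 to 0.24, and 4 of 1994 genes, again with Dpt, were as low or lower.

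Pi16 differed by nearly as much as Dpt but read close to the floor. It read 8.01 on the Adam19+/+ array against 7.65 on the Adam19-/- array, which differ by -0.36, from 257.5 to 200.7 in linear units or 1.28-fold lower. The Adam19+/+ value lay 0.0018 above the floor and the Adam19-/- value below it, so Pi16 counted as above the floor through the array where it was higher. In its band the central 95% ran from -0.27 to 0.40, and 24 of 1994 genes, or 1.2%, were as low or lower. The differences of Dpt and Pi16 lay 0.06 apart. Neither gene has a second cluster that could be set beside the first.

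Cd34, which with Pi16 and Dpt marks these fibroblasts, read 12.35 on the Adam19+/+ array against 12.31 on the Adam19-/- array. The difference of -0.04 was smaller than the median gap between clusters of a gene, and 24.3% of genes in its band were as low or lower. Gsn was at 10.27 and 10.24, a difference of -0.03, with 24.6% of its band as low or lower. Both genes were above the floor on both arrays. Dpep1 was below it on both, at 7.61 and 7.57, a difference of -0.04, and 26.5% of its band was as low or lower. These 3 genes therefore stood within the bulk of genes of like signal, between 1.02-fold and 1.03-fold lower, in contrast to Dpt and Pi16 in the same samples. The step from Pi16 to the next lowest member, Dpep1, was 0.32 on the log2 scale.

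Gpx3 went the other way. It read 9.62 on the Adam19+/+ array against 10.06 on the Adam19-/- array, which differ by 0.44, from 788 to 1066 in linear units or 1.35-fold higher. Above the floor, 65 genes were as high or higher. In its band the central 95% ended at 0.30, and 14 of 1994 genes, or 0.702%, were as high or higher. The difference of Gpx3 was thus about as far from 0 as that of Dpt, and the members together spanned 0.86 on the log2 scale. Gpx3 lies on chromosome 11, as does Adam19, within 20 Mb of it and with 117 measured genes between them. It is the single measured member in that window, and the part of its position in the result was not tested.

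Clec3b was below the floor on both arrays, at 5.97 in Adam19+/+ and 6.19 in Adam19-/- cells. The difference of 0.22, or 1.17-fold, lay within the central range of its band, which ran from -0.31 to 0.35, and 7.32% of that band was as high or higher. In linear units it was 62.59 against 73.02.

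**Figure D2:**
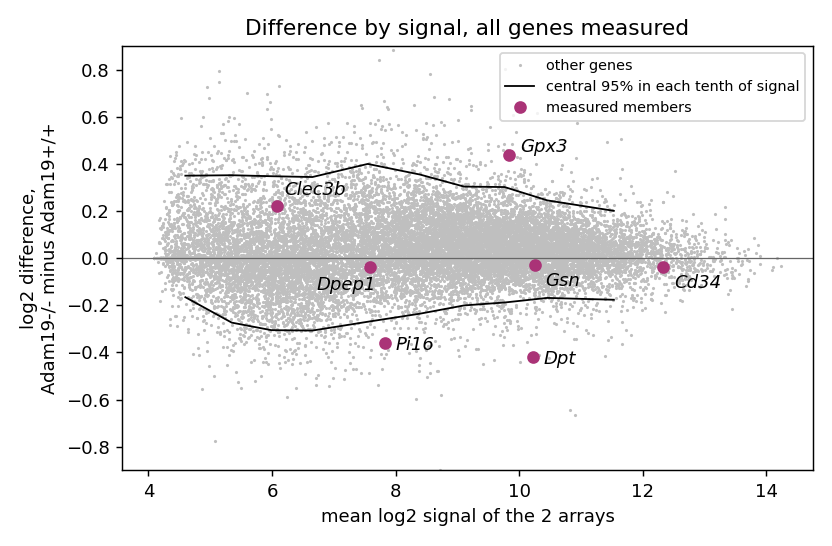
Difference in log2 signal (vertical axis) against the mean log2 signal of the 2 arrays (horizontal axis) for all 19938 genes (grey) and the 7 measured members (large points), with black lines for the central 95% of genes in each of 10 bands of signal. Dpt and Pi16 lie below the lower line and Gpx3 above the upper line, while Cd34, Gsn, Dpep1 and Clec3b lie between them, and 5 genes with differences beyond 0.9 are outside the axis.

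The other genes of adventitial and widely distributed fibroblasts did not share a direction. Of 32 listed genes 29 were measured and 22 were above the floor, 11 of them lower and 11 higher, with a median difference of 0.00. Of all genes above the floor, 33.7% read lower and 65.2% read higher, and their median was 0.04. Lower values were thus more frequent in this list than among genes above the floor in general, which was not tested. A single gene of the 22, or 4.55%, was lower by 1.2-fold, and none was higher by as much. It was Mfap5, a protein of elastic microfibrils, at 11.24 and 10.57, 1.59-fold lower, and 7 genes above the floor, Mfap5 included, were as low or lower. Next came Scara5, a ferritin receptor of fibroblasts, at 8.79 and 8.53, whose difference of -0.26 fell just short of 1.2-fold. Pdgfra, the receptor that marks most fibroblasts, was at 11.88 and 12.11, a difference of 0.22. Lum, the collagen-binding proteoglycan lumican, was at 11.64 and 11.81, a difference of 0.17.

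Several other genes often measured with Pi16 and Dpt differed by less than 1.2-fold, in both directions. Col14a1, a collagen of fibril surfaces, differed by -0.14 and Col15a1, a collagen next to basement membranes, by -0.05. Ebf2, a transcription factor, differed by -0.14, the surface sialomucin Cd248 by 0.11 and Sema3c, a secreted guidance factor that is also on the neural crest list, by 0.03. Dpp4, a surface peptidase found with Pi16 in adult fibroblasts, read 6.78 on both arrays, below the floor. Fbln1 and Fbln2, fibulins of the matrix, differed by 0.12 and -0.09. Without Mfap5, the lowest of the remaining 21 was Scara5.

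Genes that act with dermatopontin differed in both directions, none of them by as much as Dpt. Of 12 listed partners and matrix genes, all above the floor, 6 read lower and 6 read higher, and the median was 0.02. None was lower by 1.2-fold and 2, or 16.7%, were higher by as much. Of all genes above the floor, 33.7% read lower and 65.2% higher. The shares past 1.2-fold were 1.13% lower and 4.06% higher, so none lower among 12 says little of this list. These were Tgfbi, a matrix protein induced by TGF-beta, at 12.34 and 12.71, and Fmod, the collagen-binding fibromodulin, at 10.66 and 11.03, both 1.29-fold higher. Tgfb1 differed by 0.21 and Eln, the elastin gene, by -0.14. Dcn, the decorin that dermatopontin binds, was at 13.15 and 13.10, a difference of -0.05, and Col1a1 differed by 0.05.

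Relatives of Pi16 in the CAP superfamily parted in both directions. Of the 5 above the floor, Pi16 included, Crispld1, a secreted CAP protein, was at 9.33 and 9.74, 1.33-fold higher. Glipr1 differed by -0.23, while Crispld2 differed by -0.03 and Glipr2 by -0.02. Clec18a at -0.09 and R3hdml at 0.10 were below the floor, and Glipr1l1 and Crisp3 read the same on both arrays, also below it. The difference of Crispld1 thus stood opposite that of Pi16 and was of like size.

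The relatives of Gpx3 did not follow it. Gpx4, which reduces lipid peroxides, was at 10.31 and 10.43, a difference of 0.13. Gpx1, the main cytosolic form, differed by -0.02, Gpx7 by 0.02 and Gpx8 by -0.04. Gpx2 at 0.18, Gpx6 at -0.19 and Gpx5, level at 4.74, were below the floor. Gpx3 was the 1 of 5 family members above the floor that differed by 1.2-fold. Among all genes above the floor, 4.06% were higher by as much.

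For the remaining members the relatives above the floor differed by less than 1.2-fold. In the CD34 family, Emcn differed by -0.09, Cd164 by 0.04 and Podxl2 by 0.00, and Podxl, below the floor at 6.57 and 6.89, by 0.32. Emcn was above the floor only on the Adam19+/+ array. In the gelsolin family, Svil differed by -0.10, Flii by 0.07, Capg by 0.05 and Vill by -0.01. Vil1 at 0.03, Avil at -0.08 and Scin at -0.13 were below the floor. Around tetranectin, the plasminogen activator gene Plat differed by 0.12 and Anxa2, a surface binder of plasminogen, by -0.01. Clec3a read the same on both arrays, below the floor. Near Dpep1, the aminopeptidase gene Anpep differed by -0.10, and Dpep2 at 0.03 and Dpep3, level at 5.79, were below the floor.

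The Ly6 family stood in for Ly6a only in part, since its relatives Ly6c1 and Ly6c2 had no cluster to themselves either. Of 15 measured genes 3 were above the floor, namely Cd59a at 0.17, Lypd1 at 0.17 and Ly6e at 0.07. The other 12 lay below the floor on both arrays, from Gpihbp1 at -0.23 to Slurp1 at 0.06. Ly6g6c and Lynx1 differed by -0.08, Ly6i by -0.05, Ly6f by 0.01 and Lypd2 by 0.00, and Ly6d, Ly6g, Ly6h, Ly6k and Psca read the same on both arrays. Over all 15 the median difference was 0.00.

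**Figure D3:**
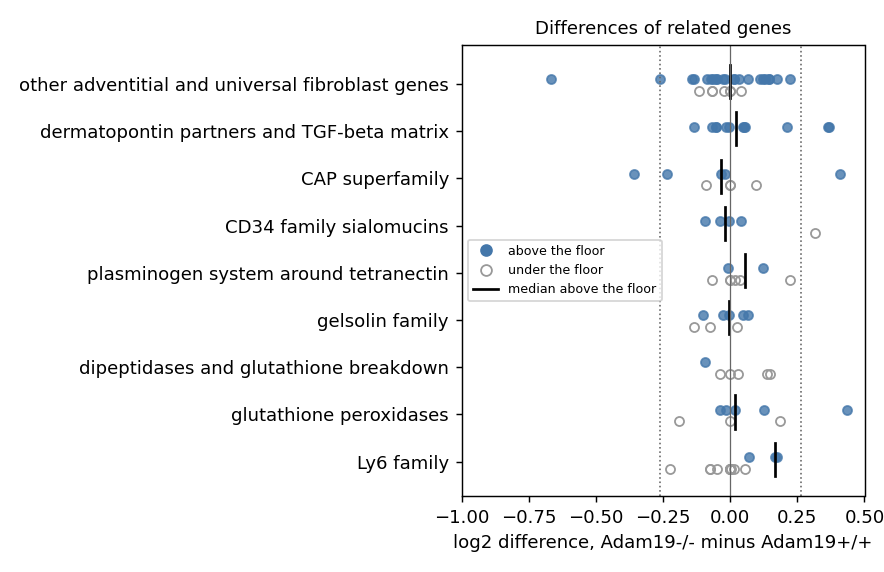
Differences in log2 signal of genes related to the members, by list (members that belong to a list are included), with filled points for genes above the floor on at least 1 array, open points for genes below it, and a black bar for the median of the filled points. Dotted lines mark 1.2-fold. The fibroblast list centres on 0.00 with Mfap5 far to the left, and Pi16 at -0.36 and Crispld1 at 0.41 lie at opposite ends of the CAP superfamily.

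Markers of the cell types that the sorted population could hold were read on the same arrays. Of 11 cardiac neural crest genes 10 were above the floor, and so were all 10 genes of fibroblast and valve mesenchyme and all 10 of smooth muscle. The fibroblast and valve list, which shares Pdgfra, Dcn and Lum with the list above, had a median of 0.11, with 3 of 10 lower and 7 higher. Genes above the floor in general read lower in 33.7% and higher in 65.2%. Tcf21 was at 8.32 and 8.89, Scx at 8.78 and 9.20 and Twist1 at 9.05 and 9.45. The summed linear signal of this list was 41420 in Adam19+/+ and 42280 in Adam19-/- cells. Postn, the matrix protein periostin, differed by -0.08, Dcn by -0.05 and Col3a1 by 0.00. The part of this list in the values of Dpt and Pi16 was not tested.

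Smooth muscle, the neighbour of the adventitia in the artery wall, had all 10 markers lower, with a median of -0.12 and a summed signal of 31870 against 29230. Of all genes above the floor, 33.7% read lower, and 1.13% were lower by at least 1.2-fold. Of the 10 markers 2, Itga8 and Kcnmb1, were lower by as much. Itga8 was at 10.53 and 10.12, Kcnmb1 at 8.99 and 8.72 and Lmod1 at 8.47 and 8.22. Kcnmb1, like Gpx3, lies within 20 Mb of Adam19, and the part of its position was not tested. Schwann cell and glial markers were lower in 4 of 5, with a median of -0.11, led by Fabp7 at -0.15, Cdh19 at -0.14 and Erbb3 at -0.11. None of these 5 was lower by 1.2-fold. Itga8, at -0.41, had a difference like that of Dpt. Whether these differences have a part in the lower values of Dpt and Pi16 was not tested.

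Markers of cells outside the neural crest lineage were in part higher in the Adam19-/- sample. All 11 leukocyte markers were higher, 4 of them above the floor, with a summed signal of 2084 against 2844. Of all genes above the floor, 65.2% read higher. By at least 1.2-fold, 8 of the 11 were higher, against 5.07% of all genes. Above the floor 3 of the 4 were, against 4.06%. Ptprc, the common leukocyte antigen, was below the floor on both arrays at 6.05 and 6.26, while Laptm5, above it on both, differed by 0.68. C1qb at 7.98 and 8.63 and Fcer1g at 7.75 and 8.32 passed the floor only through the Adam19-/- array, where they were higher, and Cd68, above it on both, differed by 0.05. The endothelial list, which bears on Cd34, had 5 of 10 genes above the floor, 2 lower and 3 higher, and a summed signal of 2545 against 2755. Emcn, 1 of the 2 lower genes, passed the floor only through the Adam19+/+ array, where it was higher. Over all 10 genes, 2 read lower and 6 higher, 3 of them by at least 1.2-fold, against 5.07% of all genes. Pecam1 at 7.06 and 7.34 and Cdh5 at 7.66 and 7.92, its defining markers, were below the floor, and among those above it Egfl7 differed by 0.23, Kdr by 0.22 and Esam by -0.14. The part of either list in the members' values was not tested.

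The remaining marker lists are given for the same purpose. Cartilage genes had a summed signal of 6606 against 7467, and of 8 above the floor 2 were lower and 6 higher. Acan at -0.29 and Cytl1 at -0.28 were lower by 1.2-fold, and 5 genes were higher by as much. Among these 5, Epyc differed by 0.64, Hapln1 by 0.58, Sox9 by 0.57 and Col9a1 by 0.43. Epyc was above the floor only on the Adam19-/- array. By comparison, 1.13% of all genes above the floor passed 1.2-fold in the lower direction and 4.06% in the higher. By any size, 33.7% of them read lower and 65.2% higher, which holds beside the lists that follow too. Cardiomyocyte genes had a sum of 4291 against 4608, and of 6 above the floor 2 were lower and 4 higher. Tnnt2 differed by -0.10 and Tnni3 by -0.03, Myl7 by 0.78 and Pln by 0.54. Myh6, above the floor only on the Adam19-/- array, differed by 0.39. Autonomic neuron genes had a sum of 11720 against 12300, and 3 of 5 were lower, among them Prph at -0.11 and Chrna3 at -0.10, while Th differed by 0.46 and Dbh by 0.43. Neural crest genes had a sum of 11110 against 11970, and of 10 above the floor 2 were lower and 8 higher, from Tfap2a at -0.05 to Foxc1 at 0.29. Next to Foxc1 came Msx2 at 0.27, above the floor only on the Adam19-/- array, and Tfap2b at 0.26. Epicardial and mesothelial genes had a sum of 2106 against 2376. Just 2 of 8 were above the floor, Tbx18 at 0.21 and Aldh1a2 at 0.20, and Wt1 read 7.61 on both arrays. Erythroid genes had a sum of 2553 against 3049, and the 2 above the floor were Hba-x at 0.36 and Hbb-y at 0.29. The 3 measured Y-linked genes were lower, between -1.62 for Eif2s3y and -1.17 for Kdm5d, with Uty at -1.42. All 3 were above the floor only on the Adam19+/+ array. The labels do not give the sex of the embryos. With 1 array per genotype, a difference in sex makeup cannot be told apart from one of genotype. Its part in the members' differences was not tested.

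**Figure D4:**
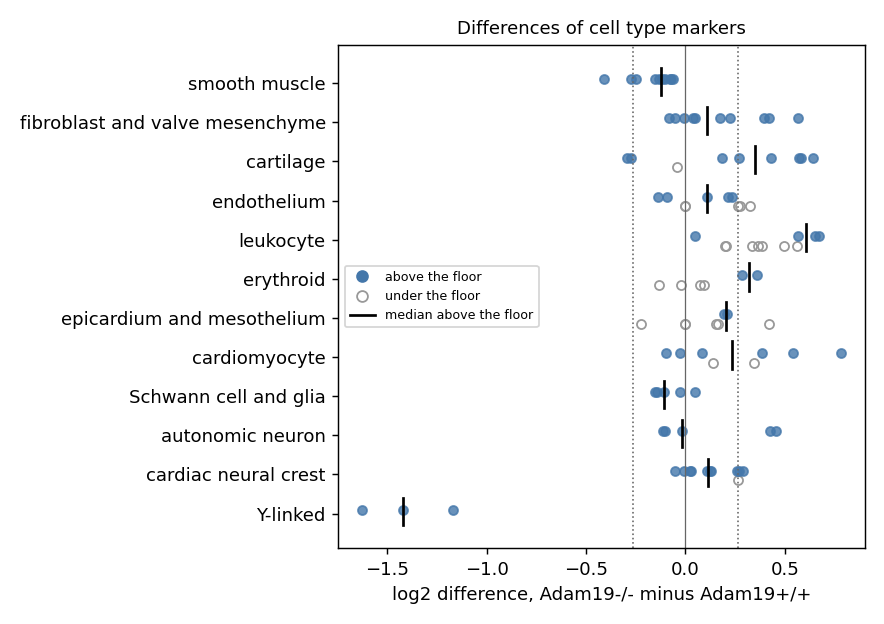
Differences in log2 signal of cell type markers, by list, with filled points for genes above the floor on at least 1 array, open points for genes below it, and a black bar for the median of the filled points. All 10 smooth muscle points lie left of 0 and all 11 leukocyte points right of it, while the fibroblast and valve list spreads from -0.08 to 0.57.

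The members stayed on the same side of 1.2-fold when the arrays were scaled in other ways. Under 5 other treatments of the values, the difference of Dpt ranged from -0.46 to -0.41 and that of Pi16 from -0.40 to -0.32, both lower by at least 1.2-fold each time. Gpx3 ranged from 0.39 to 0.44 and was higher by at least 1.2-fold each time. Cd34, Gsn and Dpep1 ranged from -0.08 to -0.02 together, and Clec3b from 0.15 to 0.25, none of them reaching 1.2-fold in any of the 5. The order of Cd34, Gsn and Dpep1 among themselves changed with the treatment. One of the 5, averaging the clusters of a gene, could not move a member, since each has a single cluster. None of the 5 shifted the median difference of genes above the floor by more than about 0.04. Members far from 1.2-fold therefore had little room to change sides. Dpt and Pi16 also chose the set, so their values here are description.

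**Figure D5:**
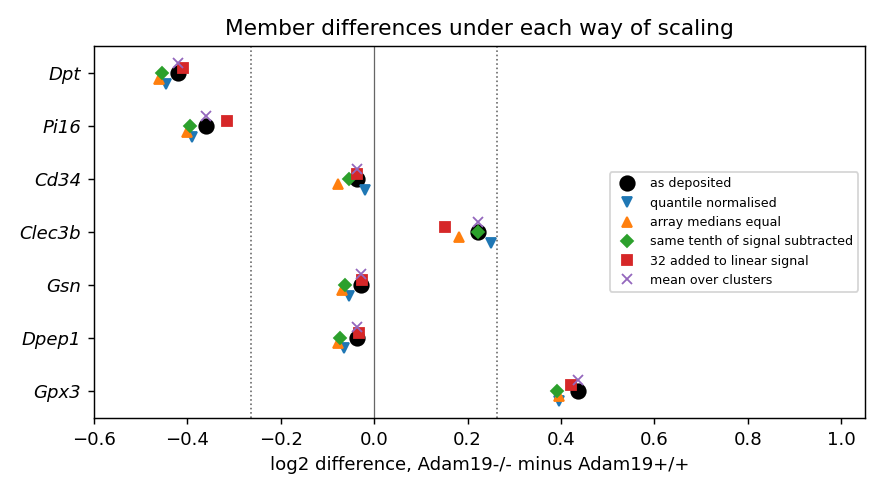
Difference in log2 signal of each measured member as deposited (black circles) and under 5 other treatments of the values (coloured symbols), with dotted lines at 1.2-fold. All symbols of Dpt and Pi16 lie left of the lower dotted line and all those of Gpx3 right of the upper one, and those of the other 4 members lie between the lines.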

How the data were processed

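RNA from 2 sorted samples, 1 per genotype, was measured on the Mouse Gene 1.0 ST array, per the labels. The authors deposited a table of log2 signals for 28853 transcript clusters. Their background correction and normalisation, and the log base, are not stated in these sources. The base was taken as 2 because the highest value, 14.52, then stands for 23484, within the range of a scanner. Gene names came from the array annotation of 2016, updated by Entrez identifier through a RefSeq gene table of GRCm38.p6. Of the clusters, 21789 had 1 symbol, 1621 several and 5443 none, and the brightest cluster with 1 symbol stood for a gene.

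With 1 array per genotype no test was made. Differences, counts past 1.2-fold and 1.5-fold, and medians were computed (Python 3.11.15, numpy 2.4.6, pandas 2.3.3, matplotlib 3.10.9), and the steps were tested on simulated data. The number of arrays limits the precision. The members and lists were chosen with earlier results of these data known. Named were all members, their listed relatives in the same family, up to 4 genes per related list and 3 per cell type list with the largest differences above the floor, and the 3 genes nearest to Dpt and to Pi16. Further list genes in the text were picked with their values in view. Alternatives covered quantile normalisation, centring of the arrays, subtraction of the median difference of a signal band, 32 added to the linear signal, averaging of clusters, higher floors and leaving out the region of Adam19.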

Additional observations from a re-analysis of the deposited data

How the results depend on the processing

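No direction of a member past 1.2-fold turned under any alternative run. The count of members lower by 1.2-fold was 2 of 7 under the 5 other treatments of the values and 2 of 5 among members above the floor. Those 2 are the pair that chose the set, and Pi16 passed the floor only through the Adam19+/+ array, where it was higher. Of the 4 members above the floor on both arrays, Dpt alone was lower by 1.2-fold. A stricter floor of 9.76, the 75th percentile of genes, left 4 members and a count of 1, since Pi16 was dropped. Among these 4, Gpx3 passed the stricter floor only through the Adam19-/- array, where it was higher. The median over the members ranged from -0.08 to -0.03 over the alternatives, and it was -0.04 without Gpx3, the member near Adam19. Centring the arrays shifted all differences by -0.04. Of the 40 alternatives run for the related and cell type lists, 3 moved a median by more than 0.095, the 68th percentile of the gap between clusters of a gene. With all measured genes, dim ones included, the Ly6 median became 0.00, the leukocyte median 0.39 and the erythroid median 0.08. Signal limits what can be read of Clec3b and Dpep1, both below the floor, and of Pi16, at the floor. With no second array per genotype, no alternative bears on the variation between embryos.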

Other observations

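The genes nearest to Dpt and Pi16 in the plane of the 2 arrays' log2 signals were Tspyl2, Bcam and Ccnl1 for Dpt, at distances of 0.09, 0.12 and 0.14, and Tbx15, Lcat and Tyw5 for Pi16, at 0.05, 0.10 and 0.16. Tbx15, a T-box transcription factor, read 8.03 on the Adam19+/+ array and 7.61 on the other, which differ by -0.42. Lcat, a cholesterol-esterifying enzyme, differed by -0.36 and Bcam, a laminin-binding surface protein, by -0.29. This likeness rests on 2 arrays and says nothing of shared control.

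Within 20 Mb of Adam19, 192 genes other than Adam19 were above the floor. Of them 8, or 4.17%, were lower by 1.2-fold, against 1.06% of the genes elsewhere, and 11, or 5.73%, were higher, against 4.03%. Gpx3 was the 4th highest of the 192, and their median difference was 0.03. Kcnmb1, Hba-x and Flii, named above, also lie in this window.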
